A study of Homo sapiens with 6 samples.

Results

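The lysyl oxidase family was followed in PC-3 cells, an established line from a human prostate carcinoma that grows without androgen, after exposure to menthol. Its 5 members, LOX, LOXL1, LOXL2, LOXL3 and LOXL4, were taken by gene symbol from 18404 genes measured with 1 unambiguous symbol. Each of the 5 had 1 probeset, so no measured value decided which probeset stood for a gene, and 0 further probesets named a member together with other genes. LOXHD1, which shares part of the name, is not a lysyl oxidase and was left out. The family was selected on measured values: it was chosen by the falls of LOXL4 and LOX in the same comparison, menthol against vehicle. The p-values given for members therefore place each gene in the fit over all genes, as a description, and are no independent evidence.

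Total RNA was measured on 6 whole-transcript Affymetrix arrays, 3 of cells given menthol dissolved in ethanol and 3 of cells given the ethanol vehicle. Both groups were the same line in DMEM with 10% FBS, both received ethanol at 0.1%, and 300 ng of RNA was labelled per array. The labels used here state neither the menthol dose nor the exposure time. A single cell line without surrounding stroma was tested, and nothing in the labels ties the 3 arrays of a group to separate cultures, so p-values measure the spread between these arrays, which may be technical.

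Lysyl oxidases are copper-dependent enzymes that work outside the cell. They oxidise lysine side chains of collagens and elastin to reactive aldehydes, which then condense into the covalent cross-links that stiffen collagen fibrils and elastic fibres. LOX and LOXL1 are made with a propeptide that is cut off after secretion, by BMP1 and related proteases, and LOXL1 is known above all for elastic fibre upkeep. LOXL2, LOXL3 and LOXL4 carry scavenger receptor cysteine-rich domains in place of that propeptide, and LOXL2 cross-links the collagen IV of basement membranes. LOX is a textbook target of hypoxia-inducible factors, and several members are studied for their part in tumour spread.

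The stretches before the transcription starts of LOX and LOXL4 are shown because these are the members with the largest changes and because their base composition differs widely. Each is the 250 bases upstream of the gene's outermost start listed in RefSeq (GRCh38.p14), at chr5:122078260-122078509 for LOX and chr10:98268195-98268444 for LOXL4, both on the minus strand and written 5′ to 3′. Capitals mark ACGTG, the core of the hypoxia response element, and GGGCGG, the GC box, on either strand.
LOX: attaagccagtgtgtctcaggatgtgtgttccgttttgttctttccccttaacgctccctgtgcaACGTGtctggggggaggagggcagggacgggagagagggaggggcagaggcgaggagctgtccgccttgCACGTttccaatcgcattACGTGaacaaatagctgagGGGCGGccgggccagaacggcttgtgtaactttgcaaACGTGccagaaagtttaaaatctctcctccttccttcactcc
LOXL4: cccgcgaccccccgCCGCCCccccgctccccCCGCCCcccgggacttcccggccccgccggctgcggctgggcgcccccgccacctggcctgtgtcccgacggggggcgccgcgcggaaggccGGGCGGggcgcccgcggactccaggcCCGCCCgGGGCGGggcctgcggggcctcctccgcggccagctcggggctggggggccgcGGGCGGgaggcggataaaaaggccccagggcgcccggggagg

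The LOX window held 4 copies of ACGTG and 1 GC box, and 55.2% of its bases were G or C. Of 35116 RefSeq windows of the same length, 18.5% held at least 1 ACGTG and 0.0911%, or 32 windows, held 4 or more. The LOXL4 window held 6 GC boxes and no ACGTG, and its G and C content of 86.4% was above that of 99.8% of the windows. At least 1 GC box was present in 42.6% of all windows and 4 or more in 7.63%. GCGTG, the other common form of the hypoxia response core, was in 32.2% of windows, 4 or more times in 1.12%, and in neither printed window. The Snail-type E-box CAGGTG was in 17.5% of windows and was present 1 time in the LOXL4 window and not in the LOX window. The TATA box TATAAA was in 10.7% of windows and in none of those read for LOX, LOXL1, LOXL3 and LOXL4. No LOXL2 window was read. None of these motifs was found in the LOXL1 window, which had 66.8% G and C. LOX had 2 further listed starts, each with 1 ACGTG, 1 GCGTG and 1 CAGGTG in its window and no GC box, and these windows overlap. LOXL3 had 2 listed starts, 1 with 2 GC boxes, 1 GCGTG and 1 CAGGTG and 1 with none of the motifs. The motifs do not overlap one another in the printed windows, and a match describes these letters and not a site in use.

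**Figure D1:**
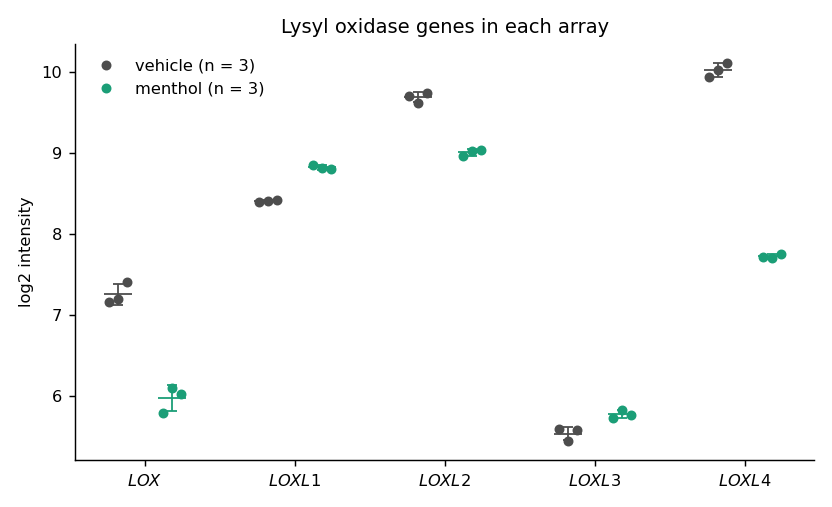
Log2 intensity of the 5 lysyl oxidase genes in each of the 6 arrays, with vehicle arrays in grey and menthol arrays in green. Points are arrays and bars the group mean ± SD (n = 3). For every member the vehicle and menthol arrays are apart, with LOX, LOXL2 and LOXL4 lower and LOXL1 and LOXL3 higher with menthol.

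Of the 5 genes, 3 fell with menthol and 2 rose (limma, Benjamini-Hochberg adjusted p under 0.05 over all genes). The 3 that fell were LOXL4, LOX and LOXL2, and each fell by more than 1.5-fold. LOXL1 rose by less than 1.5-fold and LOXL3 by a smaller amount still. Many genes differed between the menthol and vehicle arrays: 29.1% of all genes passed the threshold, 14.5% lower and 14.6% higher, and 5.61% passed with a change of at least 1.5-fold, 2.62% lower and 2.99% higher. In all 5 members the vehicle and menthol arrays did not overlap, as in 45.3% of all genes. The median change of the 5 was -0.68 on the log2 scale, against 0.03 over all genes. LOXL4, LOXL2 and LOXL1 were among the brightest 25% of genes, of which 26.9% fell and 17.2% rose.

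LOXL4, a secreted member of the scavenger receptor type, changed most. Its log2 intensity was 9.94, 10.02 and 10.11 in the vehicle arrays and 7.71, 7.70 and 7.76 in the menthol arrays. The lowest vehicle array thus lay 2.18 above the highest menthol array, and the menthol arrays lay within 0.05 of one another. The change was -2.30 ± 0.07 (SE, n = 3 per group; 95% interval -2.46 to -2.15), or 4.93-fold lower, with an adjusted p of 8.42e-06 in limma. Among all genes, 4 fell by more than LOXL4, and 10 changed by more in either direction. Many genes beside LOXL4 on chromosome 10 were lower as well, which bears on how its fall can be read and is described with the neighbouring genes.

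LOX, the founding member and the main cross-linker of fibrillar collagen, read 7.16, 7.19 and 7.41 with vehicle and 5.79, 6.10 and 6.02 with menthol. The menthol arrays were all more than 1 log2 unit below the vehicle arrays, with a gap of 1.06 between the groups. LOX fell by 1.28 ± 0.10, or 2.43-fold (95% interval -1.52 to -1.04; limma adjusted p = 0.00018). Its replicates were the most spread of the family, with an SD of 0.13 for vehicle and 0.16 for menthol.

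LOXL2, which acts on collagen IV, read 9.70, 9.62 and 9.74 with vehicle against 8.96, 9.02 and 9.04 with menthol. The groups were 0.58 apart, and the fall was 0.68 ± 0.06, or 1.60-fold (95% interval -0.83 to -0.54; limma adjusted p = 0.00030). Among all genes 314 fell by more than LOXL2 and 36 by more than LOX.

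LOXL1, the elastic fibre member, moved the other way. Its vehicle arrays read 8.39, 8.41 and 8.42 and its menthol arrays 8.85, 8.81 and 8.80, the tightest replicates of the family. LOXL1 rose by 0.42 ± 0.06, or 1.33-fold (95% interval 0.28 to 0.55; limma adjusted p = 0.0016). A rise larger than that of LOXL1 was seen in 1227 genes.

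LOXL3, the other scavenger receptor member, read 5.59, 5.44 and 5.57 with vehicle and 5.73, 5.83 and 5.77 with menthol. The groups lay 0.14 apart. The rise was 0.24 ± 0.07, or 1.18-fold (95% interval 0.08 to 0.40), with a limma adjusted p of 0.033. LOXL3 lost its call when any vehicle array, or menthol array 2 or 3, was left out, with adjusted p up to 0.115, and stayed higher throughout, by 0.19 to 0.26. Among the 4601 genes in the same band of mean signal as LOXL3 the median change was 0.06. The gene table places LOXL3 over parts of DOK1 and HTRA2, which changed by 0.23 ± 0.09 (adjusted p = 0.101) and 0.06 ± 0.07.

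**Figure D2:**
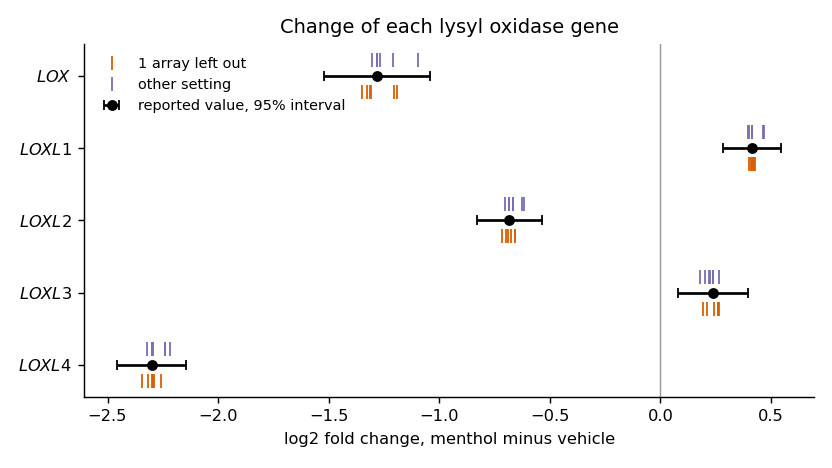
Log2 fold change, menthol minus vehicle, of each lysyl oxidase gene. Black points are the reported values with 95% intervals, orange ticks the values with 1 array left out and purple ticks those under other settings. Every tick stays on the side of 0 of its reported value, from -2.34 for LOXL4 to 0.47 for LOXL1.

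The changes within the family were unequal in size as well as direction. In each array the difference between 2 members was taken, which cancels any shift common to the array, and these differences were compared between the groups for all 10 pairs. LOXL4 fell by 1.02 ± 0.10 more than LOX (SE over arrays, n = 3 per group) and by 1.62 ± 0.06 more than LOXL2. LOX fell by 0.60 ± 0.10 more than LOXL2. LOXL1 and LOXL3, the members that rose, were the nearest pair, with a difference in change of 0.18 ± 0.06. The exact permutation test, two-sided, gave p = 0.10 for each pair before and after adjustment over the 10, which is the smallest that 3 against 3 arrays can give, and the family was chosen on this comparison, so the pairs are a description.

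The division did not follow the structural types. Of the propeptide members LOX fell and LOXL1 rose, and of the scavenger receptor members LOXL2 and LOXL4 fell and LOXL3 rose. The split among the scavenger receptor members is the less firm. It rests on LOXL3, which lost its call on leaving out any vehicle array or menthol array 2 or 3.

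**Figure D3:**
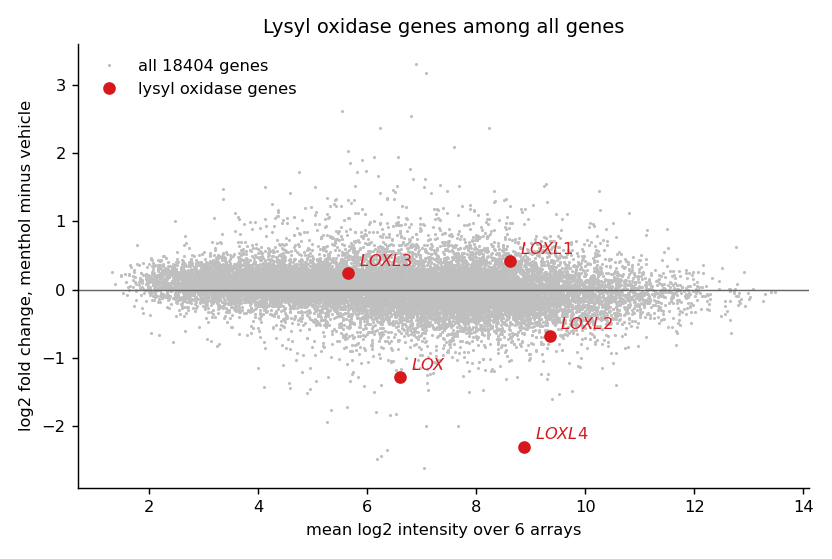
Log2 fold change, menthol minus vehicle, against mean log2 intensity over the 6 arrays for all 18404 genes (grey) and the 5 lysyl oxidase genes (red). LOXL4 at -2.30 lies among the lowest points, and LOXL3 at 0.24 within the main cloud.

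The genes that lie beside each member were read next. The nearest measured protein-coding gene was read on each side of every member, 10 neighbours in all, and 2 of them passed the threshold, both beside LOXL4, where 29.1% of all genes passed. PYROXD2, a mitochondrial oxidoreductase gene, read 7.91, 7.54 and 7.89 with vehicle and 6.31, 6.34 and 6.60 with menthol, a fall of 1.36 ± 0.12 (limma adjusted p = 0.00026). R3HCC1L, on the other side, read 8.48, 8.50 and 8.58 with vehicle and 7.89, 7.98 and 8.12 with menthol, a fall of 0.53 ± 0.08 (adjusted p = 0.0020). The groups were apart for both genes. The 8 neighbours of LOX, LOXL1, LOXL2 and LOXL3 did not pass, with changes between -0.21 for TBC1D21 and 0.25 for ZNF474. SRFBP1, which overlaps LOX in the gene table, changed by -0.13 ± 0.08.

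The windows were then widened, a step added after these values had been seen. Among the 20 measured protein-coding genes on each side of LOXL4 on chromosome 10, 24 of 40 fell, and the median change was -0.50. In the same windows around LOX, LOXL1, LOXL2 and LOXL3, 6, 7, 9 and 10 of 40 fell, with medians between -0.11 and 0.09. Of 15965 such windows along all chromosomes, 39 held at least as many falling genes as the one around LOXL4, and neighbouring windows share genes. Windows of 40 genes on each side gave 43 of 80 around LOXL4, with a median of -0.32, and 10 to 20 of 80 around the other 4.

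The genes that rose nearest to LOXL4 were ZNF518A on one side and WBP1L on the other. Between them lay 86 measured genes besides LOXL4, of which 47, or 54.7%, fell. By the number of falling genes this was the first of 2007 stretches between genes that rose, and the next held 17 among 47 genes. A rank by number favours long stretches. A stretch of 28 genes on chromosome 14 held 16 that fell, a share much like the one here. Of the 51 genes of the stretch with a mean signal above the median of all genes, 39 fell, with a median change of -0.53, while all genes of that signal had a median of -0.03 and 23.6% of them fell. Of the 35 dimmer genes 8 fell, with a median of -0.02. The stretch was cut at the nearest genes that rose, so by definition it held none. The genes it was set against include genes that rose, so the shares and medians are not like for like.

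The lower level was present in each menthol array. Set against each gene's vehicle mean, the median of the 51 brighter genes was -0.55, -0.51 and -0.52 in menthol replicates 1, 2 and 3 and between -0.02 and 0.02 in the vehicle arrays. Counts of falling genes ranged from 43 to 46 with 1 array left out, and 1 gene of the stretch passed as higher on leaving out vehicle array 2 or 3. After PYROXD2 the largest falls in the stretch were those of MMS19, at -1.23 ± 0.06, and AVPI1, at -1.05 ± 0.06. LOXL4 fell by 1.77 more than the median of the 51, or 3.42-fold. DNA copy number was not measured, so a regional difference between the cultures of the 2 groups and a response of LOXL4 to menthol cannot be told apart.

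**Figure D4:**
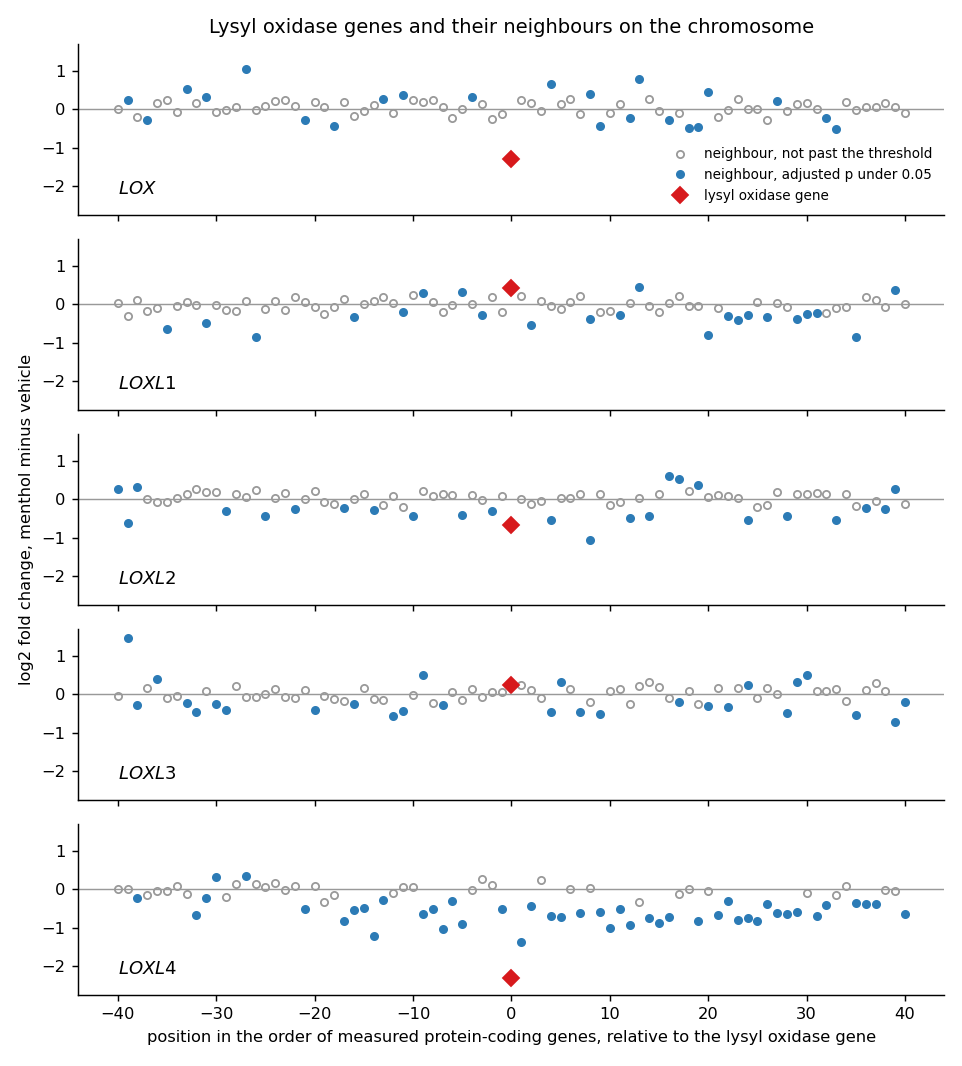
Log2 fold change, menthol minus vehicle, of each lysyl oxidase gene (red diamond) and of the 40 measured protein-coding genes on each side in chromosomal order. Filled points passed the threshold. Around LOXL4, 43 of 80 neighbours fell and the median was -0.32, and around the other 4 members 10 to 20 of 80 fell.

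Genes that process, hold or use lysyl oxidases were read from lists made for this purpose. Each was set beside the median of 0.03 and the shares of 14.5% lower and 14.6% higher over all genes. The share that fell grew with mean signal, from 1.91% of the dimmest 25% of genes to 26.9% of the brightest 25%. The lists were not matched for signal, so 14.5% is a low yardstick for a list of bright genes. Of 14 genes of propeptide processing and matrix tethering, 4 fell and 4 rose, with a median of -0.0019. BMP1, the protease that frees active LOX, did not pass, at -0.08 ± 0.07 (limma adjusted p = 0.383). Its relative TLL1 fell by 0.62 ± 0.09, and ADAMTS3, a procollagen peptidase, by 0.39 ± 0.07. Fibronectin (FN1), a scaffold on which LOX is activated, fell from 10.71 ± 0.04 (SD, n = 3) to 9.98 ± 0.07, a change of -0.73 ± 0.06. THBS1, a matricellular protein, rose by 0.60 ± 0.06.

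The collagen IV chains, substrates in basement membranes, came first among the substrates read. Of 6 collagen IV chains 3 fell and 1 rose, with a median of -0.37. COL4A1 read 7.78 ± 0.04 (SD, n = 3) with vehicle and 6.54 ± 0.03 with menthol, and fell by 1.24 ± 0.06. COL4A2, which lies head to head with COL4A1 and forms the same trimer, fell by 0.99 ± 0.07, and COL4A5 by 0.65 ± 0.07. COL4A4 rose by 0.32 ± 0.10, a call that held on leaving out menthol array 3 and was lost on leaving out any of the other 5.

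Of 11 fibrillar collagen chains 2 fell and 2 rose, with a median of -0.04. COL5A2 fell by 0.73 ± 0.07 and COL3A1 by 0.55 ± 0.08. COL11A2 rose by 0.23 ± 0.07 and COL1A2 by 0.21 ± 0.06, and COL1A1, the main chain of type I collagen, did not pass (-0.20 ± 0.07, limma adjusted p = 0.0763). With vehicle array 2 left out 1 chain rose, and with any of the other 5 left out neither COL11A2 nor COL1A2 passed, while 2 chains fell in each case.

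Of 13 elastic fibre genes 6 fell and 1 rose, with a median of -0.13, and 4 to 6 fell with 1 array left out. The fibulin FBLN1 fell by 0.74 ± 0.08, LTBP1, which anchors latent TGF-beta to fibrillin, by 0.66 ± 0.06, and the fibrillin FBN2 by 0.46 ± 0.09. Elastin itself, ELN, did not pass (0.12 ± 0.08, limma adjusted p = 0.306). The rise of MFAP4, at 0.44 ± 0.13, lost its call on leaving out any vehicle array or menthol array 1 or 2.

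The enzymes that hydroxylate collagen before it is cross-linked were split. Of 16 genes of collagen lysine and proline modification 5 fell and 2 rose, with a median of -0.12. PLOD2, whose telopeptide lysyl hydroxylation decides the type of cross-link, rose by 0.37 ± 0.08, and the prolyl hydroxylase subunit P4HA3 by 0.35 ± 0.08. P4HA1 fell by 0.32 ± 0.06 and the prolyl 3-hydroxylase gene P3H3 by 0.33 ± 0.06. On leaving out any vehicle array or menthol array 3, 3 genes fell, and on leaving out vehicle array 2 or 3, 1 gene rose.

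Copper reaches secreted lysyl oxidases through ATP7A, the pump that loads copper in the Golgi. ATP7A fell by 0.37 ± 0.07 (limma adjusted p = 0.0070) and its relative ATP7B by 0.32 ± 0.07. The importer SLC31A1 did not pass (-0.19 ± 0.08, adjusted p = 0.119), except with menthol array 3 left out (adjusted p = 0.0346), and SLC31A2 rose by 0.38 ± 0.08. STEAP4, a metalloreductase, rose by 0.47 ± 0.09. In all, 3 of 14 copper supply genes fell and 2 rose, with a median of -0.07.

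**Figure D5:**
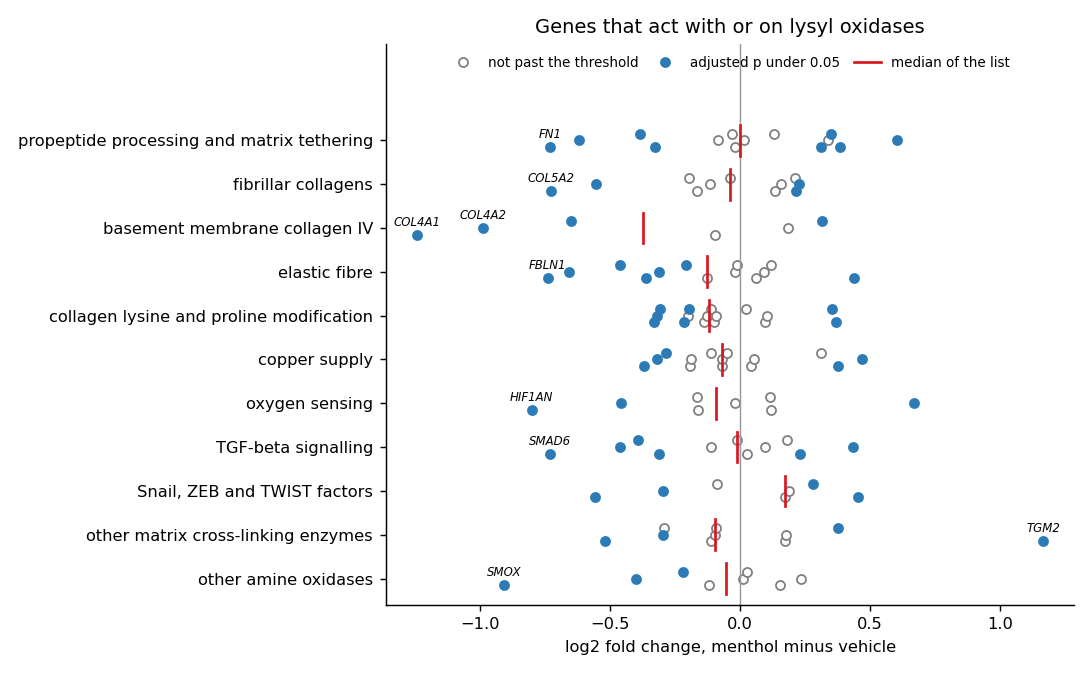
Log2 fold change, menthol minus vehicle, of the genes in 11 lists of partners, substrates, regulators and other enzymes. Filled points passed the threshold, open points did not, and red bars are list medians. Medians lie between -0.37 for collagen IV and 0.17 for the Snail, ZEB and TWIST factors.

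Known regulators of lysyl oxidase genes showed no common direction. In oxygen sensing 2 of 8 genes fell and 1 rose, with a median of -0.09. HIF1A, whose product is controlled mostly at the protein level, did not pass (-0.16 ± 0.06, limma adjusted p = 0.0807), and EPAS1, which encodes HIF-2α, rose by 0.67 ± 0.06. HIF1AN, which restrains HIF activity, fell by 0.80 ± 0.06, and it lies in the chromosome 10 stretch that holds LOXL4. VHL fell by 0.46 ± 0.06.

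In TGF-beta signalling 4 of 11 genes fell and 2 rose, with a median of -0.01. The ligand gene TGFB1 fell by 0.39 ± 0.07 and TGFB2 rose by 0.43 ± 0.08, while the transducer SMAD3 fell by 0.46 ± 0.06 and the inhibitory SMAD6 by 0.73 ± 0.07. TGFB2 alone rose when any array other than menthol array 1 was left out.

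Of 7 Snail, ZEB and TWIST factors, which drive mesenchymal gene programmes, 2 fell and 2 rose, with a median of 0.17. SNAI1, reported to be stabilised by LOXL2 and LOXL3, fell by 0.56 ± 0.12 and ZEB1 by 0.30 ± 0.08, and TWIST2 and TWIST1 rose by 0.45 ± 0.09 and 0.28 ± 0.07. With vehicle array 1 or 2 left out TWIST1 lost its call and 1 factor rose. With array 1 or 3 of either group left out ZEB1 lost its call and 1 factor fell.

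The epithelial identity of the line and the other cells that make lysyl oxidases were read from markers. All 5 epithelial markers rose; the summed intensity was 6213 to 6570 with vehicle and 10520 to 10856 with menthol, with KRT19 up by 0.97 ± 0.07, KRT18 by 0.87 ± 0.06, CDH1 by 0.78 ± 0.07 and EPCAM by 0.69 ± 0.08. The 8 fibroblast markers summed to 427 to 450 with vehicle and 384 to 408 with menthol, while the median change of the 8 was 0.14, opposite in sign to the change of the sum. LUM and DCN lay at the 0.717th and 1.95th percentile of gene signal. COL1A1, the brightest of the 8, lay at the 70.7th and weighs most in the sum. Of the fibroblast markers 2 rose and 1 fell; DCN, at 0.36 ± 0.09, lost its call for vehicle array 2 or 3 and menthol array 1 or 3, and COL1A2 lost it whichever array was left out. Of the androgen-response markers KLK2 and KLK3 were dim, at the 33.6th and 32.2nd percentile, and did not pass (-0.15 ± 0.08 and 0.02 ± 0.10), and the other 3 were not analysed here. Percentiles compare probesets of unequal affinity and give rough signal ranks. Any link between the rise of the epithelial markers and the lysyl oxidase changes was not tested.

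For each member the 3 genes with the most similar pattern were found by the Euclidean distance between gene-centred log2 values over the 6 arrays, among 13802 other genes outside the dimmest 25%. With 2 groups this measure mostly matches the size of the change. Nearest to LOXL4 were LGR5 (distance 0.30), DHRS9 (0.43) and SCUBE3 (0.46). Nearest to LOX were CDKN2AIP (0.18), NFKBIZ (0.19) and SEMA4B (0.20). RUVBL2 (0.06), ANGEL1 (0.07) and UHRF2 (0.07) were nearest to LOXL2, KRT75 (0.05), GDAP2 (0.05) and ZNF791 (0.06) to LOXL1, and KIF13B (0.04), SMG5 (0.04) and SIRT7 (0.05) to LOXL3. The genes nearest to LOXL4 lay farther off than those of the other members, with LGR5 lower by 2.44 on the log2 scale and DHRS9 by 2.61.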

How the data were processed

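The authors deposited 1 table of intensity values for 32321 probesets in 6 arrays, and the submitters' processing notes name RMA. The deposited intensity values ran from 1.57 to 14835, with array medians between 47.4 and 49.1. They were therefore linear, and log2 was taken. Software, probe annotation and build were not given in the sources used here. Of the probesets, 19158 had 1 gene symbol in the platform annotation and 1388 had several. The probeset with the highest mean stood for a gene, which left 18404 genes.

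A limma model (version 3.58.1, R 4.3.3) with group as its one term gave two-sided tests by lmFit and eBayes, adjusted by Benjamini and Hochberg over all genes, with a threshold of 0.05. The scripts were checked on simulated data. The number of arrays limits the precision. Alternatives were quantile or cyclic loess normalization, setting medians equal, removing dim genes, other probeset rules, a trended robust prior with statmod 1.5.0, array weights, a replicate block, an offset of 16, a threshold of 0.01 and leaving out each array.

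The members and the 14 lists were chosen with earlier results of these data known, so no list was tested. Of 139 list memberships 133 were measured. The text names, per list, the 4 genes at most that changed furthest and passed, or failing any the 2 of lowest p. It always names BMP1, ATP7A, SLC31A1, COL1A1, COL4A1, ELN, FN1, PLOD2, P4HA1, HIF1A, TGFB1 and SNAI1, the nearest neighbours and the 3 nearest patterns. Other genes around LOXL4, and LUM, were named after their values were seen. RefSeq promoter windows were read for 4 of the 5 members, and LOXL2 was left out of that search. Figures used Python 3.11.15, pandas 2.3.3 and matplotlib 3.10.9.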

Additional observations from a re-analysis of the deposited data

How the results depend on the processing

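LOXL4, LOX, LOXL2 and LOXL1 kept their direction and passed in all 18 alternatives, with changes of -2.34 to -2.22, -1.35 to -1.10, -0.72 to -0.61 and 0.39 to 0.47. For genes with 1 probeset, the probeset rules, signal filters, trended prior, replicate block and threshold of 0.01 can alter the call but not the change. LOXL3 stayed higher in its 17 alternatives and missed the threshold in 10: at 0.20 with cyclic loess, 0.22 with equal array medians, 0.24 with the trended prior, the replicate block or a threshold of 0.01, and 0.19 to 0.26 with 1 array left out. LOXL3 was not among the genes above the median signal. Members that rose therefore numbered 1 in place of 2 in these settings (1 to 2 with 1 array left out), and 3 fell in every alternative. Genes past a threshold of 0.01 numbered 1382 higher and 1459 lower. Deviations from the group means of same-numbered arrays correlated at 0.0065, -0.0072 and 0.091. With 3 arrays per group these values cannot settle whether the numbers pair the samples. With the replicate number as a block 2483 genes were higher and 2385 lower with limma, and COL11A2 and COL1A2 did not pass, nor SMAD2, while 3 collagen modification genes and 2 amine oxidases fell. Of the differences between members under the alternatives, 167 moved by less than the replicate SD and 9 by more. The 167 include settings that cannot move a difference between members with 1 probeset each. These were equal array medians, the signal filters, the probeset rules, the trended prior, the replicate block and the threshold of 0.01. The cause of the shifts between settings was not tested.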

Other observations

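Other enzymes that cross-link the matrix moved apart. Of 10 such genes 2 rose and 2 fell, with a median of -0.10. TGM2, the tissue transglutaminase, which joins glutamine to lysine residues, rose from 9.68 ± 0.08 (SD, n = 3) to 10.85 ± 0.02, a change of 1.16 ± 0.06 (limma adjusted p = 4.3e-05). QSOX1, a secreted sulfhydryl oxidase, rose by 0.37 ± 0.06. PXDN, the peroxidasin that forms sulfilimine bonds in collagen IV, fell by 0.52 ± 0.07, and the prostate transglutaminase TGM4 fell by 0.30 ± 0.06.

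Of 8 other amine oxidases 3 fell and 5 did not pass, with a median of -0.05. The spermine oxidase SMOX fell from 10.31 ± 0.08 (SD, n = 3) to 9.40 ± 0.06, a change of -0.91 ± 0.07 (limma adjusted p = 0.00014). The monoamine oxidase MAOA fell by 0.40 ± 0.11 and the histone demethylase KDM1A by 0.22 ± 0.06. With any vehicle array left out neither MAOA nor KDM1A passed, and 1 of the 8 fell; KDM1A was lost with menthol array 1 or 2 left out as well.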
